A study of Mus musculus with 2 samples.

Results

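Klrg1, Klrc1, Klrc2, Klrd1, Klrk1 and Klrb1c encode lectin-like receptors of NK cells and T cells, and they were followed across the T cell lineages of mouse melanomas. They were chosen by name, not by their measured values, and are 6 of the 31053 mouse genes counted. The study sorted T cells by TCR-β from B16 melanomas and from B16–IL-33 melanomas, a B16 line engineered to overexpress the secreted form of IL-33, on day 9 after intradermal inoculation of 100000 cells into C57BL/6J mice. Leukocytes were enriched with CD45 microbeads, labelled with hashtag antibodies, sorted and pooled, and 18000 cells were loaded for 5′ single-cell RNA and TCR sequencing. The pool gave 1 gene expression, 1 hashtag and 1 TCR library, so each lineage and each tumor is 1 sample. The age and number of the mice are not given in the sources used here.

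These receptors let a lymphocyte read the state of the cells around it. KLRG1 is an inhibitory receptor for cadherins and a known mark of late effector CD8+ T cells and of tissue Treg cells. CD94, the product of Klrd1, pairs with NKG2A (Klrc1), which inhibits, or with NKG2C (Klrc2), which activates, and both pairs read the nonclassical MHC molecule Qa-1, encoded by H2-T23. NKG2D (Klrk1) is an activating receptor for stress-induced ligands of the RAE-1, H60 and MULT1 families and signals through the adaptors DAP10 (Hcst) and DAP12 (Tyrobp). NK1.1 (Klrb1c) defines NK cells and many NKT cells in C57BL/6 mice.

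All 6 genes lie on chromosome 6 (GRCm38, the mm10 build of the deposited matrix), and their spans are given from GENCODE vM21 as whole genes, exons and introns included. Klrg1 (ENSMUSG00000030114) spans chr6:122270596-122282882 on the minus strand, away from the others. Klrb1c (ENSMUSG00000030325) spans chr6:128778485-128789215, also on the minus strand. The 4 NKG2 and CD94 genes follow one another: Klrd1 (ENSMUSG00000030165) at chr6:129591782-129598775 on the plus strand, then Klrk1 (ENSMUSG00000030149) at chr6:129610323-129623864, Klrc2 (ENSMUSG00000052736) at chr6:129647496-129660689 and Klrc1 (ENSMUSG00000030167) at chr6:129666015-129678973, all 3 on the minus strand. Klrc1 and Klrc2 are near-identical copies in part. Of the 2030 different 50-base stretches in the annotated Klrc1 transcripts, 742 (36.6%) were also found in Klrc2 transcripts, so the split of reads between both genes is uncertain. No such stretch was shared between the other members.

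Promoter sequence was at hand for 4 of the 6 genes, from RefSeq on GRCm38.p6, as the 250 bases before the start. The windows of Klrc1 and Klrk1, genes of the NKG2 block that were detected together in CD8+ T cells, lie outside annotated exons and are printed below, 5′ to 3′ on the strand of the gene, with the Runx letters TGTGGT or their reverse complement ACCACA in capitals. Runx factors are regulators of the CD8 T cell program.
Klrc1, chr6:129678974-129679223, minus strand: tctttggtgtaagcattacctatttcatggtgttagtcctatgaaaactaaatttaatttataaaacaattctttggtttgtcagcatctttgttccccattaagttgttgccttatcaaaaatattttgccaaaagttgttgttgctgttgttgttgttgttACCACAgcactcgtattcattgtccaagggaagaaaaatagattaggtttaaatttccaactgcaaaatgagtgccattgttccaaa
Klrk1, chr6:129623865-129624114, minus strand: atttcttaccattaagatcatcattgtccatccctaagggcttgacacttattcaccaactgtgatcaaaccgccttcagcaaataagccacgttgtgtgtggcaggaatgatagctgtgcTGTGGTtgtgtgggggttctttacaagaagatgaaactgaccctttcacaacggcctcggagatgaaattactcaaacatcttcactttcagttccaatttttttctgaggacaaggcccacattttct
These letters occurred in 4 of 4 member windows, once in each window printed, and in 14.0% of 32851 windows of the same length. The T-box letters TCACAC or GTGTGA, read by factors such as T-bet and Eomes, occurred in 0 of 4 member windows and in 12.3% of all windows. A match of letters describes the sequence only, and binding was not measured.

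Of 14035 barcodes, 9077 had 200 to 2500 detected genes and under 5% mitochondrial UMIs and were kept, with a median of 2467 UMIs (range 254 to 14063) and 26606370 UMIs in all. By each cell's own UMIs, 1259 cells were CD8 cells (Cd8a and Cd8b1 above Cd4 and Foxp3), 2609 were Treg cells (Foxp3, no Cd8), 1769 were Tconv cells (Cd4, no Foxp3 or Cd8) and 81 were NKT cells (Zbtb16, the gene for PLZF, no Foxp3 or Cd8), of which 21 were also Tconv cells. Median depth was 3464, 2780, 2498 and 2939 UMIs in that order. The T cell markers fixed for the check, Cd3d, Cd3e, Cd3g, Trac, Trbc1, Trbc2 and Lck, all had UMIs in each of these lineages, and 1.23% to 2.53% of their cells had no CD3 UMI. A further 3380 cells (37.2%) fell in none of them. The 6 genes together had 9736 UMIs, found in 3440 kept cells.

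Levels below are CPM, the UMIs of a gene relative to all mouse UMIs and scaled to 1000000, summed over the cells of a lineage. Shares are the percentage of cells with a UMI after each cell was thinned at random to 1500 UMIs, because deeper cells show more genes. Brackets hold 95% intervals, exact Poisson for CPM, Clopper-Pearson for shares and conditional binomial for ratios. They cover counting error only, and no test across animals exists for 1 pool. A rate of UMIs outside T cells was read from 159 cells with myeloid markers and no CD3 UMI, at a median of 4069 UMIs. There Klrg1 and Klrc1 had 2 UMIs each, Klrd1 was at 18 CPM (12 UMIs) and Klrk1 at 36.0 CPM (24 UMIs in 13 cells), while Klrc2 and Klrb1c had 0 UMIs. Over all kept cells Klrg1 had more UMIs than Klrk1 (3937 against 1391). Whether the myeloid cells hold Klrk1 mRNA of their own was not tested.

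Klrc1 and Klrd1 were highest in CD8 cells, Klrk1 in CD8 and NKT cells, Klrg1 in Treg cells and Klrb1c in NKT cells. Klrd1, the CD94 subunit, stood at 334 CPM (318–350) in CD8 cells, at 101 (66.9–145) in NKT cells, at 54.4 (48.1–61.2) in Tconv cells and at 17.3 (14.6–20.4) in Treg cells, an order in which no neighboring intervals overlap. Klrc1, the NKG2A subunit, was at 181 CPM (169–193) in CD8 cells against 32.3 (14.8–61.4) in NKT, 18.1 (14.6–22.3) in Tconv and 10.5 (8.43–13.0) in Treg cells, with overlapping intervals for NKT and Tconv cells. Klrk1, the NKG2D receptor, reached 158 CPM (115–212) in NKT cells and 143 (132–153) in CD8 cells, which did not differ beyond counting error, then 27.9 (23.5–32.9) in Tconv and 9.32 (7.36–11.6) in Treg cells. The NKG2 and CD94 genes therefore had Treg cells as their lowest lineage. Klrd1 in Treg cells and Klrk1 in Treg and Tconv cells were at or under the level of the myeloid cells. By this measure these values could not be told apart from background.

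Klrg1 had another order: 300.3 CPM (289–312) in Treg cells, 77.1 (69.6–85.2) in Tconv cells, 62.5 (55.8–69.8) in CD8 cells and 10.8 (2.22–31.5) in NKT cells, the last from 3 UMIs. The intervals of Tconv and CD8 cells overlap at their ends. Klrb1c was at 61.1 CPM (35.6–97.8) in NKT cells from 17 UMIs in 9 cells, at 7.37 (5.19–10.2) in Tconv and 7.32 (5.16–10.1) in CD8 cells, and had 5 UMIs in 5 of 2609 Treg cells (0.192%). Klrc2 was low throughout, at 21.6 CPM (7.91–46.9, 6 UMIs) in NKT and 12.7 (9.76–16.2, 64 UMIs) in CD8 cells, which did not differ beyond counting error, and at 3.19 in Tconv and 1.45 in Treg cells.

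**Figure D1:**
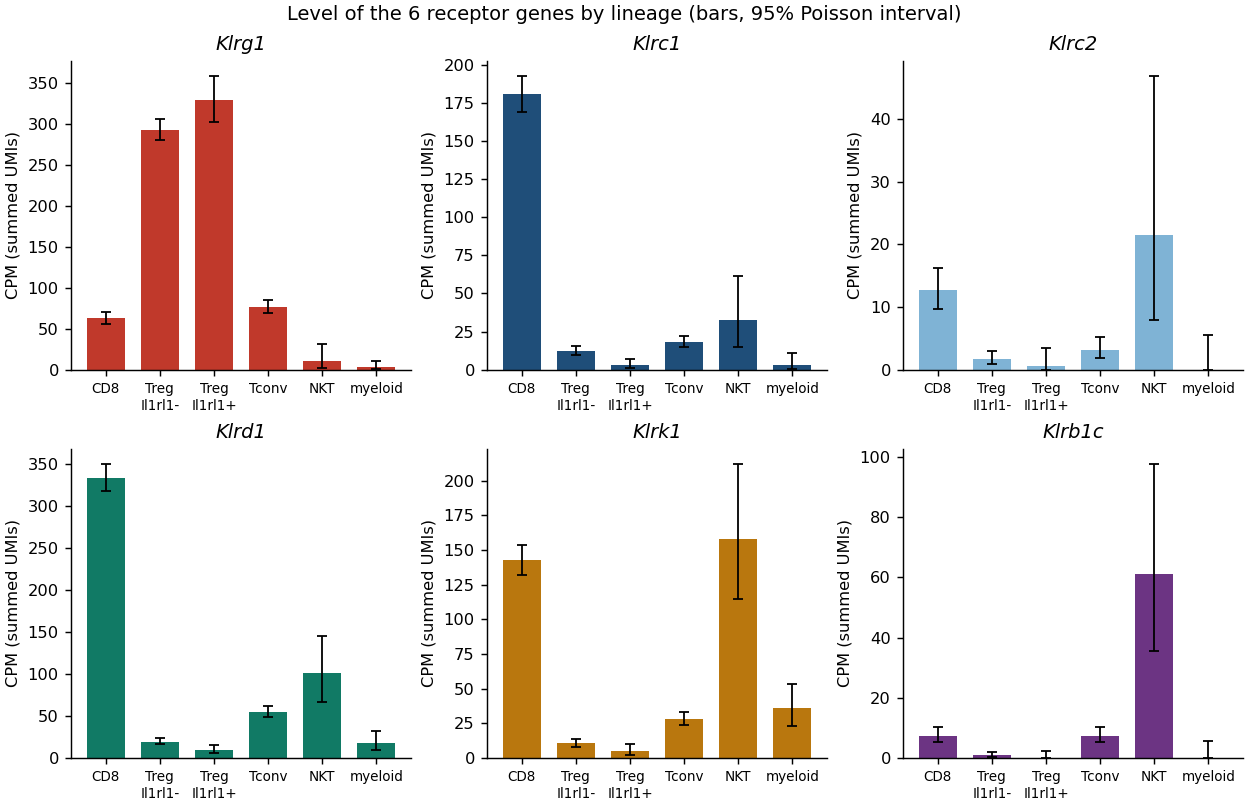
CPM (summed UMIs, vertical axis, from 0, 1 panel a gene) of the 6 receptor genes in each T cell lineage; bars are levels and lines the 95% Poisson intervals. Klrg1 is highest in Treg cells (300.3 CPM), Klrd1 and Klrc1 in CD8 cells (334 and 181 CPM) and Klrb1c in NKT cells (61.1 CPM), while the intervals of Klrk1 in NKT and CD8 cells overlap.

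Shares of cells at equal depth gave the same picture. In CD8 cells, 34.7% (31.9–37.5) of 1151 cells had a Klrd1 UMI, 22.9% (20.5–25.5) a Klrc1 UMI and 18% (15.8–20.3) a Klrk1 UMI. The corresponding Treg shares were 2.09%, 1.62% and 0.928% of 2155 cells, and the myeloid shares were 2.33%, 0.775% and 3.88%. Klrg1 was seen in 27.1% (25.2–29.0) of Treg cells and in 7.91% (6.41–9.62) of CD8 cells. Without thinning, Klrd1 was seen in 56.4%, Klrc1 in 36.9% and Klrk1 in 32.0% of CD8 cells, and Klrg1 in 38.1% of Treg cells.

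Against Treg cells, 5 of the 6 genes were at least 2-fold higher in CD8 cells and 1 was at least 2-fold lower, where 3.77% and 11.0% of the 10714 genes with at least 20 UMIs were past those folds. Klrd1 was 19.3-fold higher (16.3–23.1), Klrc1 17.1-fold (13.7–21.6), Klrk1 15.3-fold (12.1–19.6), Klrb1c 12.1-fold (4.74–39.4, 37 against 5 UMIs) and Klrc2 8.72-fold (4.66–17.8). Klrg1 went the other way, 4.80-fold higher in Treg cells (4.27–5.41). The median CD8 over Treg ratio of the members was 13.7, against 0.864 over all genes. In this comparison fewer transcripts per cell and fewer cells with the transcript cannot be told apart from CPM alone, and the thinned shares above moved the same way for Klrg1, Klrc1, Klrd1 and Klrk1.

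Against Tconv cells, 4 of 6 genes were at least 2-fold higher in CD8 cells and 0 were lower, beside 3.01% and 5.03% of 10231 genes. Klrc1 was 9.96-fold higher (8.02–12.5), Klrd1 6.14-fold (5.40–7.01), Klrk1 5.11-fold (4.26–6.17) and Klrc2 3.97-fold (2.27–7.37). Klrb1c did not differ beyond counting error, with a ratio of 0.994 (0.613–1.61), and 1.71 after thinning. The Klrg1 ratio was 0.811 (0.697–0.944). This ratio turned with the definition of Tconv cells: after the 1005 Tconv cells with a UMI of Il2ra, Ikzf2 or Ctla4, genes that Treg cells express strongly, were left out, Klrg1 was 2.93-fold higher in CD8 cells (2.13–4.13).

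Treg cells against Tconv cells separated Klrg1 from the rest. Klrg1 was 3.90-fold higher in Treg cells (3.50–4.35), the only 1 of 6 genes at least 2-fold higher, where 5.67% of 10717 genes were. Klrc2, Klrd1, Klrk1 and Klrb1c were at least 2-fold lower, 4 of 6 genes beside 3.13% of all, with ratios of 0.456 (0.197–1.03), 0.318, 0.334 and 0.0821, and Klrc1 had 0.581. Klrk1 in both lineages and Klrd1 in Treg cells were not above the myeloid level, so the Klrk1 ratio is not read as a difference in expression. Within Tconv cells, Klrg1 was at 114 CPM (103–127) in those with a UMI of Il2ra, Ikzf2 or Ctla4 and at 21.3 CPM (15.4–28.8) in the 764 with none. Klrd1 had the opposite order, 45.9 against 67.0 CPM.

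Klrg1 was next followed within Treg cells, where it had 2481 UMIs in 994 cells and up to 15 UMIs in a cell. The Il1rl1 gene encodes IL1RL1 (ST2), the IL-33 receptor, and marks a tissue type of Treg cell. In 504 Il1rl1+ Treg cells Klrg1 was at 330 CPM (302–359), and in 2105 Il1rl1- Treg cells at 293 CPM (280–306). The ratio of 1.13 (1.02–1.24) was 1.09 (0.937–1.27) after thinning, which includes 1. When Il1rl1 was also read from the thinned counts, the ratio was 1.30 with a lower bound of 1.09. The thinned shares of cells with Klrg1 were 32.1% (27.7–36.7) in Il1rl1+ and 25.9% (23.8–28.0) in Il1rl1- cells, and these intervals overlap at their ends. A small difference was therefore seen by some of these measures and not by others. With every cell weighted equally (mean CPM over cells) the ratio was 1.02. The pool mixes both tumors, and the paper reports more IL1RL1+ Treg cells in B16–IL-33 tumors. The part of the tumor of origin in this ratio was not tested.

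Split by the number of Il1rl1 UMIs, the Klrg1 share was 25.9% of cells with 0, 25.7% with 1, 33% with 2 and 43.5% (34.0–53.4) with 3 or more. The CPM values were 293, 272, 340 and 422. Cells with 3 or more Il1rl1 UMIs thus had more Klrg1 than cells with none, and cells with 1 did not. The former were also deeper, with a median of 3735 UMIs against 2772, and the Il1rl1 UMIs were counted before thinning. The part of depth in this difference was not tested.

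The NKG2 genes had few UMIs in Treg cells and were lower in the Il1rl1+ cells. Of 4 genes with enough UMIs, 3 were at least 2-fold lower beside 4.75% of 10000 genes, and 0 were higher beside 1.65%. Klrc1 had a ratio of 0.247 (0.0780–0.599) from 5 against 82 UMIs, Klrk1 0.469 (0.195–0.977) from 8 against 69 and Klrd1 0.474 (0.258–0.811) from 15 against 128. Thinning moved the Klrk1 ratio to 0.154, and with no upper limit on detected genes only 1 gene was at least 2-fold lower. Summed myeloid markers moved the same way, at 100.1 CPM in Il1rl1+ and 258 CPM in Il1rl1- Treg cells with all 9 markers detected in both, and 6 against 4 of 6 NK markers had UMIs in Il1rl1- and Il1rl1+ cells. Ncr1 and Klri2 were at 0 in Il1rl1+ cells. The part of such cells in these ratios was not tested.

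Without thinning, several other genes gave larger Klrg1 ratios in Treg cells than the 1.13 of Il1rl1. A cell without an Il1rl1 UMI can still hold its mRNA. The paper lists Klrg1 among the markers of its IL1RL1+ Treg cluster, which was formed from whole expression profiles and not from Il1rl1 UMIs. Treg cells with a UMI of Gzmb, for granzyme B, had 371 CPM of Klrg1 and those without had 180, a ratio of 2.06, and 1.72 after thinning. Tnfrsf9, which encodes the costimulatory receptor 4-1BB, gave 330 against 176 CPM, a ratio of 1.87, and 1.61 after thinning. The syndecan gene Sdc4 gave 1.49, the cytokine gene Il10 1.40, the integrin gene Itgae (CD103) 1.37 and Areg, for amphiregulin, 1.33, all without thinning. They are not set against the thinned Il1rl1 ratio above. Klrg1 was lower in Treg cells with a UMI of the memory and lymphoid homing genes Tcf7 (163 against 320 CPM) and Ccr7 (133 against 319 CPM), and of Ifng (157 against 311 CPM). Ratios for Mki67 and Tbx21 were 0.949 and 0.993, and 1.24 and 0.937 after thinning.

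**Figure D2:**
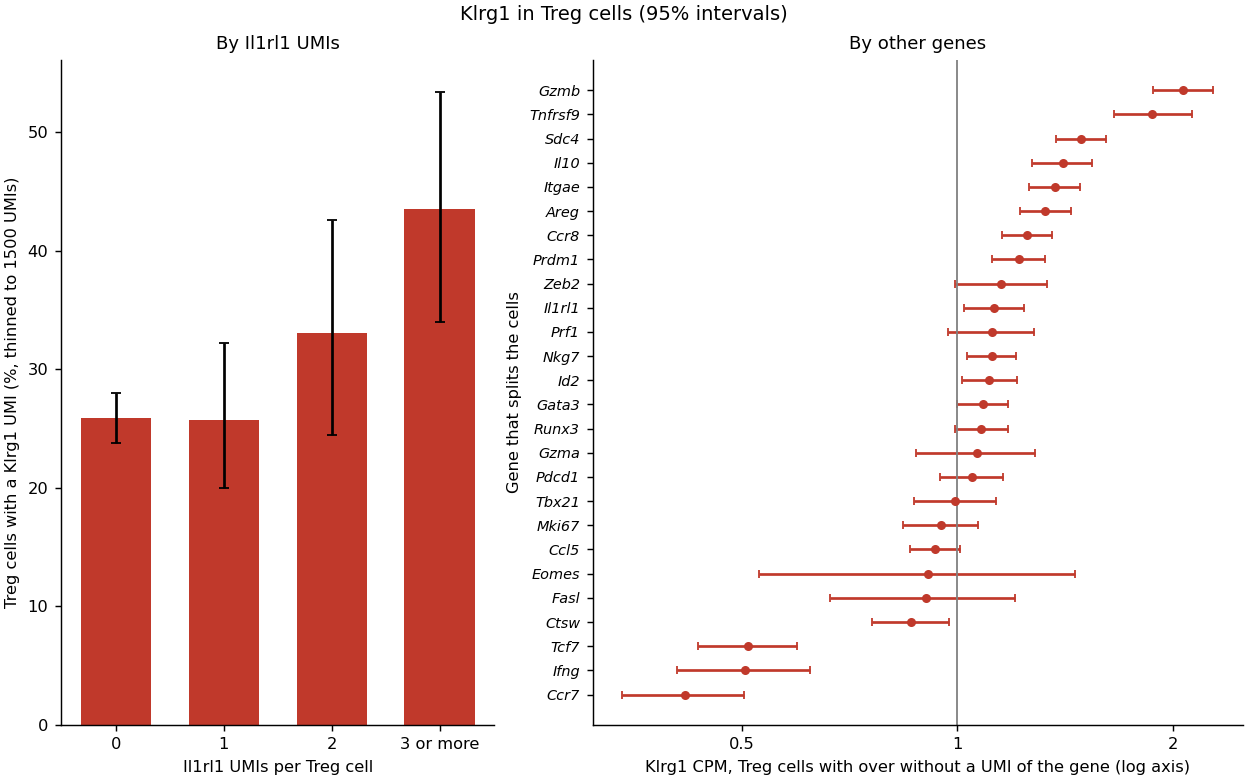
Left, share of Treg cells with a Klrg1 UMI (%, thinned to 1500 UMIs) by Il1rl1 UMIs per cell with 95% Clopper-Pearson intervals. Right, ratio of Klrg1 CPM (log axis) between Treg cells with and without a UMI of each gene, with 95% binomial intervals; Gzmb and Tnfrsf9 lie highest (2.06 and 1.87) and Ccr7 lowest (0.416).

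The reverse comparison took the 994 Treg cells with a Klrg1 UMI and the 1615 without. Areg was at 1064 and 654 CPM, a ratio of 1.63, and seen in 32.5% and 22.0% of thinned cells. Gzmb was at 1714 and 1027 CPM, 1.67-fold, in 62.0% and 45.7% of thinned cells. Il1rl1 was at 138 and 105 CPM, 1.32-fold, in 18.3% and 11.7% of thinned cells. Sdc4 and Itgae had smaller ratios of 1.24 and 1.23. Gata3 had a ratio of 1.11 (0.996–1.25), which includes 1. All of these genes but Gata3 were thus higher in Klrg1+ Treg cells beyond counting error. Ccr7 (20.9 and 70.9 CPM, ratio 0.295) and Tcf7 (25.2 and 67.5 CPM, ratio 0.373) were lower there.

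The small NKG2 signal of Treg cells lay with other genes. In Treg cells with a UMI of Ctsw, which encodes cathepsin W of cytotoxic cells, Klrd1 was 4.84-fold and Klrk1 6.67-fold higher than in those without. With Nkg7 the ratios were 2.34 and 2.28, with Gzma 3.59 and 4.49, with Ifng 3.48 and 5.59 and with Tcf7 2.90 and 3.56. Klrd1 and Klrk1 were therefore higher in Treg cells with Ifng or Tcf7, where Klrg1 was lower. After thinning, the ratios were lower for Klrd1 with Nkg7 (1.25) and Ctsw (2.86) and for Klrk1 with Tcf7 (1.21) and Gzma (1.37). The Treg levels of Klrd1 and Klrk1 were not above those of the myeloid cells. These are genes of CD8 cells as well, and the part of CD8 RNA or mixed droplets in these values was not tested.

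CD8 cells were divided into classes by UMIs of marker genes, taken in order: 251 cells with Mki67 or Top2a (proliferating), 108 of the rest with Cx3cr1 or S1pr5 (migratory effector genes), 249 with Havcr2 or Lag3 (exhaustion-associated receptors) and 651 with none of these. Klrg1 was at 145 CPM (110–188) in the Cx3cr1 or S1pr5 class and at 41.7 CPM (33.5–51.3) in the remaining cells, with 77.1 CPM in the proliferating and 55.9 CPM in the Havcr2 or Lag3 class. Klrc1 followed at 285 CPM in the Cx3cr1 or S1pr5 class, 233 in the Havcr2 or Lag3 class, 184 in the proliferating and 131 in the remaining cells. Klrk1 had its highest and lowest values in the same classes, 221 and 119 CPM. For Klrc1 the intervals of the Cx3cr1 or S1pr5 class (234–342) and the Havcr2 or Lag3 class (206–263) overlap. Klrd1 was at 473 CPM in the Cx3cr1 or S1pr5 class, 372 in the Havcr2 or Lag3 class, 308 in the remaining and 303 in the proliferating cells.

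At equal depth the Klrg1 share was 19.6% in the Cx3cr1 or S1pr5 class and 5.99% in the remaining cells. The Klrk1 shares were 23.5% and 14.8%, and the Klrc1 shares 31.4% and 18.1%. In the Havcr2 or Lag3 class the Klrg1, Klrk1 and Klrc1 shares were 7.66%, 23% and 30.2%, so Klrc1 and Klrk1 did not differ there from the Cx3cr1 or S1pr5 class beyond counting error. For Klrd1 the corresponding shares were 46.1% and 33.1%. Klrb1c, with 37 UMIs, was at 17.8 CPM (7.15–36.7, 7 UMIs) in the Cx3cr1 or S1pr5 class and at 11.7 CPM (7.58–17.3, 25 UMIs) in the remaining cells. These intervals overlap. It was at 2.20 CPM (3 UMIs) in the proliferating and 1.72 CPM (2 UMIs) in the Havcr2 or Lag3 class. Median depth differed among the classes, from 2900 UMIs in the remaining cells to 5448 in the proliferating ones.

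**Figure D3:**
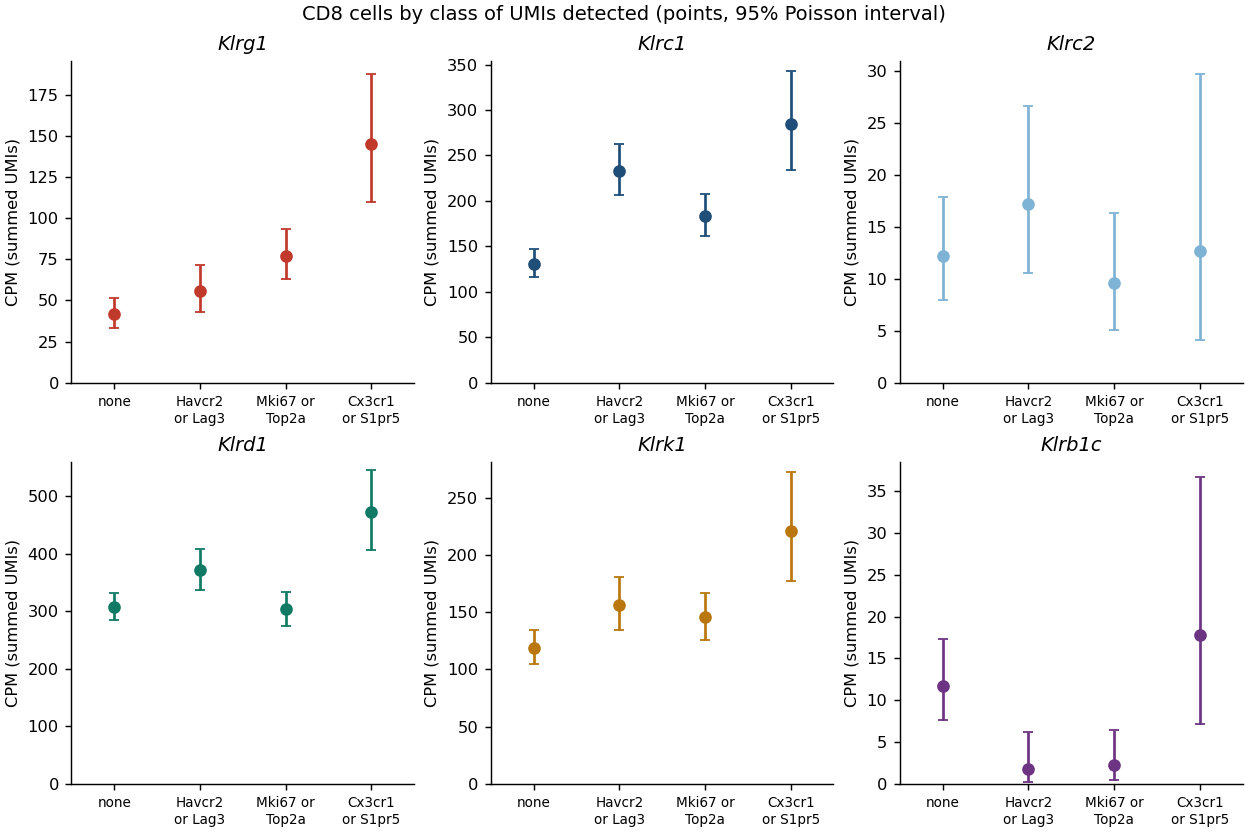
CPM (summed UMIs, vertical axes, from 0) of each receptor gene in 4 classes of CD8 cells; points are levels and lines the 95% Poisson intervals. Klrg1 stands apart in the Cx3cr1 or S1pr5 class (145 CPM), where Klrc1 is at 285 CPM with an interval overlapping the Havcr2 or Lag3 class and Klrk1 at 221 CPM. All 3 are lowest in the cells with none of the marker genes (41.7, 131 and 119 CPM), and Klrd1 stays at 303 CPM or above.

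Splits by single genes showed which CD8 cells held which receptor. Klrg1 was 3.99-fold higher (2.60–5.89) in the 33 cells with S1pr5, the receptor for tissue exit, 2.60-fold higher with Zeb2, a factor of terminal effector cells, 2.50-fold with Cx3cr1, 2.49-fold with Gzma and 2.65-fold with Gzmb. It was lower with the memory factors Id3 (0.361) and Tcf7 (0.402) and with Ccr7 (0.421). The 38 cells with Itgae, which encodes a tissue retention integrin, had a Klrg1 ratio of 3.01 (1.95–4.47) from 27 UMIs. After thinning the ratio was 2.24 (0.599–5.91) for Itgae and 0.430 (0.115–1.14) for Ccr7, both of which include 1, and 0.218 for Id3. For Pdcd1 (PD-1) the Klrg1 ratio was 0.884. A Cd4 or Foxp3 UMI was seen in 15.2% (10.5–20.9) of Klrg1+ and 9.71% (7.99–11.6) of Klrg1- CD8 cells, and its part in these ratios was not tested.

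Klrc1 was 4.68-fold higher (2.98–7.81) in CD8 cells with a UMI of Nkg7, a granule gene, 2.46-fold with the chemokine gene Ccl5, 2.15-fold with Gzmb, 1.65-fold with Cxcr6 and 1.63-fold with Havcr2 (TIM-3), and lower with Id3 (0.391) and Tcf7 (0.460). Klrk1 had ratios of 3.49 with Nkg7, 1.61 with Gzma, 1.55 with Ifng and 1.54 with Fasl. Cells with Nkg7 had a median of 3764.5 UMIs against 2198 without, and after thinning the Nkg7 ratio was 1.91 (1.33–2.83) for Klrk1 and 1.90 (1.5–2.45) for Klrd1. Klrd1, the shared partner chain, was 3.01-fold higher with Nkg7 and 1.73-fold with Ccl5, but its ratio was 0.969 (0.876–1.07) with Tcf7, 1.08 with Id3 and 1.06 with Gzmb. The Klrc1 and Klrd1 intervals for the Tcf7 split do not overlap.

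Klrb1c lay in other CD8 cells. It had 1 of 37 UMIs in cells with Pdcd1, a ratio of 0.0460, 3 in cells with Lag3 (ratio 0.147) and 7 in cells with Cxcr6 (ratio 0.205). With the few UMIs left after thinning, the ratios were 0 for Pdcd1, 0.288 for Lag3 and 0.669 for Cxcr6. In the 135 CD8 cells with a UMI of a Ly49 gene, the family of Klra receptors for classical MHC, Klrb1c was 8.79-fold higher (4.37–17.9) than in the 1124 without. Klrc2 was 2.49-fold and Klrd1 1.41-fold higher in the Ly49+ cells, Klrk1 had a ratio of 1.08, and Klrc1 and Klrg1 were lower at 0.592 and 0.398. Ly49+ CD8 cells were thus richer in Klrb1c and Klrc2 and poorer in Klrc1 and Klrg1.

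**Figure D4:**
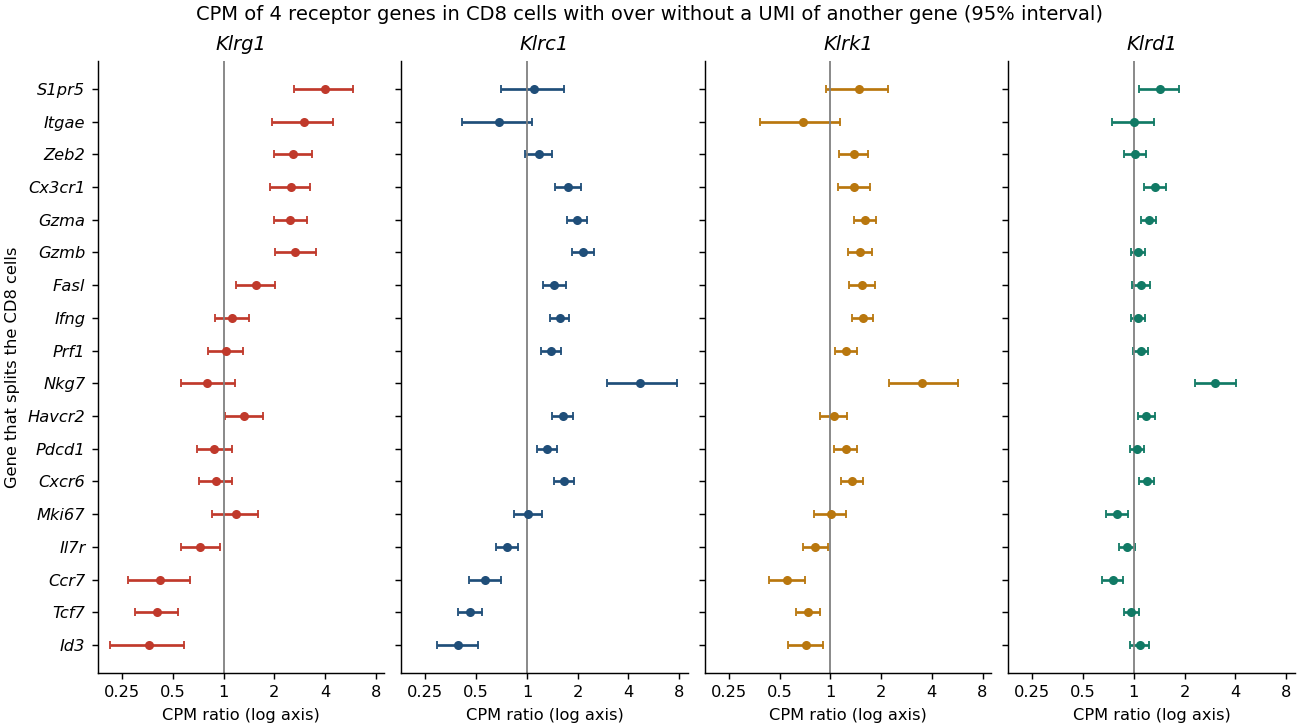
Ratio of CPM between CD8 cells with and without a UMI of each gene named, for the receptor genes, with 95% binomial intervals (log axis). Klrg1 and Klrc1 are lower in cells with Tcf7 (0.402 and 0.460), and Klrd1 with Tcf7 lies at 0.969.

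Klrc1, Klrk1 and Klrd1 were seen together in CD8 cells more often than in cells without the other gene of a pair, at 1500 UMIs. Among thinned CD8 cells, a Klrk1 UMI was seen in 31.1% (25.5–37.0) of 264 cells with Klrc1 and in 14.1% (11.9–16.6) of 887 without. For Klrd1 the shares were 43.2% (37.1–49.4) with Klrc1 and 32.1% (29.1–35.3) without. By Klrk1, Klrd1 was seen in 45.9% (39.0–52.9) of 207 cells and in 32.2% (29.2–35.3) of the others. None of these intervals overlap within a pair. After thinning to 1000 UMIs, those of Klrk1 by Klrc1 stayed apart (20% and 11.9%), while those of Klrd1 by Klrc1 (33% and 24.8%) and Klrd1 by Klrk1 (33.5% and 24.9%) overlapped. For Klrc2 the intervals overlapped at 1500 UMIs, at 2.27% and 1.92% by Klrc1 and 3.86% and 1.59% by Klrk1. Klrd1 was seen in 114 of the 264 thinned Klrc1+ cells, although NKG2A reaches the surface with CD94, and 1500 UMIs sample only a part of the mRNA of a cell.

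For Klrg1 and the NKG2 genes, the shares with and without the other gene had overlapping intervals. Klrc1 was seen in 26.4% (17.7–36.7) of 91 cells with Klrg1 and in 22.6% of those without, and Klrk1 in 16.5% and 18.1%. Klrd1 was seen in 42.9% and 34.0%. Klrc2 was seen in 0 of the 91 Klrg1+ cells, which allows a share of up to 3.30%, and in 2.17% of the others. Of the 1151 thinned CD8 cells, 485 (42.1%) had none of the 6 genes, 401 (34.8%) had 1, 202 (17.6%) had 2, 58 (5.04%) had 3 and 5 (0.434%) had 4, and 0 had more, which allows a share of up to 0.261%. In Treg cells 621 of 2155 had 1 gene, 27 had 2, 4 had 3 and 1 had 4.

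**Figure D5:**
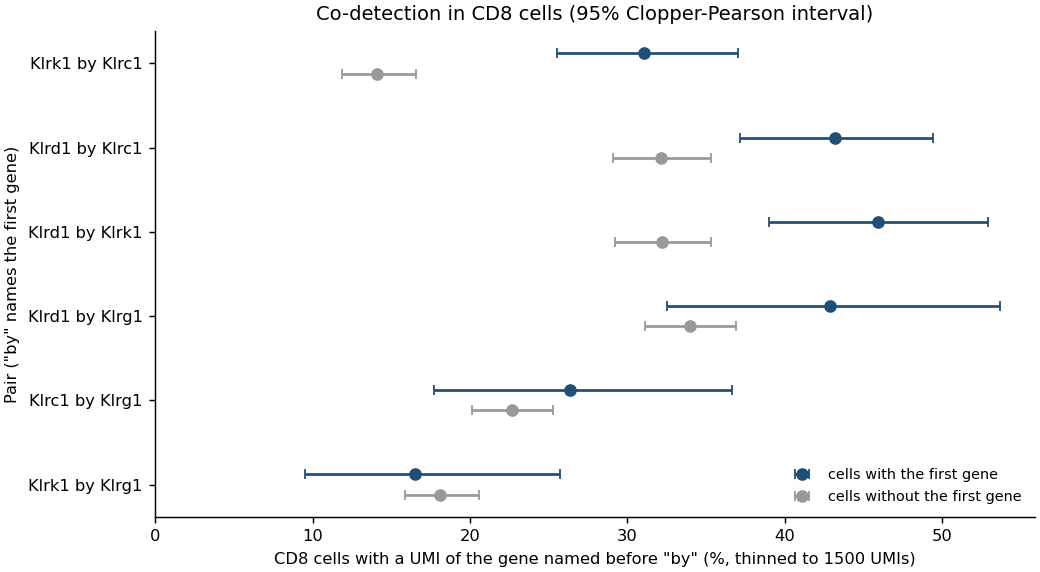
Share of CD8 cells with a UMI of the gene named before "by" (%, thinned to 1500 UMIs, horizontal axis). The cells are split by the gene named after "by", called the first gene in the legend. Lines are 95% Clopper-Pearson intervals. Klrk1 lies at 31.1% with Klrc1 and 14.1% without, while the intervals of the pairs of Klrg1 with Klrc1 and Klrk1 overlap.

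TCR contigs allowed the receptors to be set against clonal expansion. Clones were counted over the pool of both tumors. The paper reports a larger share of expanded CD8 cells in B16–IL-33 than in B16 tumors in every cluster but the naive one. The part of the tumor of origin in the ratios below was not tested. Of CD8 cells with a clonotype, 200 belonged to 73 clones of at least 2 cells and 721 were single. Klrc1 was at 289 CPM in expanded and 159 in single cells, a ratio of 1.82 (1.56–2.11), and seen in 35.4% and 20.1% of thinned cells. Klrg1 was at 82.4 and 59.8 CPM, a ratio of 1.38 (1.05–1.80). Klrd1 (0.934, 0.821–1.06) and Klrk1 (1.19, 0.986–1.43) did not differ beyond counting error. Klrb1c had 2 UMIs in expanded and 28 in single cells, a ratio of 0.238 (0.0275–0.943). Cells of 1 clone share an origin, and the largest CD8 clone, of 13 cells, had Klrc1 in 10, Klrd1 in 9, Klrk1 in 9 and Klrg1 in 5.

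In Treg cells Klrg1 was at 492 CPM in 98 cells of 46 expanded clones and at 293 CPM in 1607 single cells, a ratio of 1.68 (1.42–1.97), and the thinned shares were 40.9% (30.5–51.9) and 26.4%. In Tconv cells the order turned: Klrg1 had 7 UMIs in 63 cells of 27 expanded clones and 289 UMIs in 1117 single cells, a ratio of 0.393. In expanded Tconv cells Klrd1 was 2.44-fold higher (1.55–3.69) and seen in 15.9% against 5.70% of thinned cells, with intervals apart. Klrc1 had a ratio of 2.43 (1.06–4.93) and Klrk1 of 2.61 (1.41–4.54), both with overlapping thinned intervals. The thinned Klrg1 shares of expanded and single cells had overlapping intervals in CD8 (11.8% and 7.40%) and Tconv cells (3.17% and 7.56%), so at equal depth the difference held for Treg cells only. Treg and Tconv clones were also counted over both tumors.

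NKT cells were few, and their values rest on 81 cells. Against Tconv cells, 3 of 6 genes were at least 2-fold higher beside 5.75% of 9203 genes, and 1 was lower beside 16.6%. Klrb1c was 8.29-fold higher (4.38–15.1), Klrc2 6.76-fold (2.17–18.2, 6 against 16 UMIs) and Klrk1 5.67-fold (3.94–8.01). Klrd1 was 1.85-fold (1.21–2.73) and Klrc1 1.78-fold higher (0.791–3.54), and Klrg1 had a ratio of 0.140 (0.0287–0.412). At 2 or more Zbtb16 UMIs, 11 NKT cells were left and Klrb1c, Klrc2 and Klrd1 had 0 UMIs.

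Against CD8 cells, Klrb1c was 8.34-fold higher (4.4–15.2), 1 of 6 genes at least 2-fold higher beside 8.83% of 9084 genes, and Klrg1, Klrc1 and Klrd1 were at least 2-fold lower with ratios of 0.172, 0.179 and 0.301, 3 of 6 beside 14.9%. Klrk1 had a ratio of 1.11 (0.799–1.5). NK cell markers in NKT cells summed to 287 CPM, with 3 of 6 detected and Ncr1, Eomes and Klri2 at 0. In CD8 cells the sum was 315 CPM with 6 of 6 detected. The list includes Tyrobp and Fcer1g, which myeloid cells express, and it summed to 7064 CPM in the myeloid cells. These sums are therefore not read as a measure of NK cells.

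The TCR gave another view of NKT cells. The invariant chain of TRAV11 and TRAJ18, which defines type I NKT cells, was found in 62 kept cells, where Klrb1c was at 67.7 CPM (37.0–114) from 14 UMIs in 8 cells and Klrk1 at 150 CPM from 31 UMIs in 11 cells. All 14 Klrb1c UMIs lay in cells without a Zbtb16 UMI, 44 cells with 100.2 CPM (54.8–168). The 16 invariant cells in the Zbtb16-defined group had 0 Klrb1c UMIs, which allows up to 49.1 CPM. Of the 17 Klrb1c UMIs of that group, 16 lay in its 54 cells without an alpha contig and 1 in the 11 cells with another alpha chain, so its Klrb1c level rests on cells whose alpha chain was not read.

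The partners of the receptors differed less between lineages than the receptors. Hcst, for DAP10, was at 792 CPM in CD8, 709 in Tconv, 650 in NKT and 520 in Treg cells, and seen in 67.2%, 61.6%, 59.5% and 53.0% of thinned cells. Tyrobp, for DAP12, was at 75.4, 79.7, 119 and 75.6 CPM in that order and in 2.90% to 6.33% of thinned cells, and Fcer1g, for the FcRγ chain, at 125, 106, 151 and 109 CPM. In myeloid cells Tyrobp and Fcer1g reached 2977 and 4083 CPM and were seen in 94.6% and 97.7% of cells, and the part of free RNA from such cells in the low shares of the lineages was not tested. Hcst was at 75.0 CPM in the myeloid cells, below each T cell lineage. Of the 8 adaptor and signaling genes listed, 0 passed 2-fold between CD8 and Treg cells in either direction, with a median ratio of 0.994 beside 0.864 over all genes.

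Among the ligands, the Qa-1 gene H2-T23 was at 355 CPM in Treg, 249 in Tconv, 215 in CD8 and 190 in NKT cells, and its CD8 over Treg ratio was 0.605. H2-D1, H2-K1 and B2m had ratios of 0.615, 0.592 and 0.727, and the listed ligands had a median of 0.671 with 0 of 6 tested past 2-fold. Ligands of NKG2D were near 0: Raet1d had 1, 9 and 0 UMIs in CD8, Treg and Tconv cells, Raet1e 1, 6 and 0, H60b 3, 9 and 2, and Ulbp1, for MULT1, 19, 24 and 14. The cadherin genes Cdh1 and Cdh2, for ligands of KLRG1, had 7, 0 and 2 UMIs and 0, 3 and 0 UMIs, and Cdh4 had 0. Only 8 barcodes had melanoma markers and no CD3 UMI, so ligands on tumor cells were not measured at a useful depth.

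Other receptor genes of the same chromosomal complex were described from lists. Of 11 Ly49 genes, 5 had enough UMIs, and 5 were at least 2-fold higher in CD8 than in Treg cells and 0 lower, with a median ratio of 12. Klra7 led them at 37.8 CPM in CD8 cells and Klra1 at 122 CPM in NKT cells. Of the other lectin-like genes, 2 of 5 were higher: Klre1, which pairs with other Klr chains, at 57.2 CPM in CD8 cells (26.3-fold, 289 against 18 UMIs) and Clec2i (2.56-fold). Effector genes were higher in 7 of 8 cases with a median of 7.45, the exception being Gzmb at 0.797. Among regulators, Eomes (22.7-fold) and Tcf7 (3.12-fold) were higher and Prdm1 (0.366) and Gata3 (0.415) lower in CD8 than in Treg cells, 2 and 2 of 8.

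The genes most like each member were taken as those with the highest CPM ratio between cells with and without its UMI, among genes with at least 100 UMIs in the former. In CD8 cells, Klrg1 went with Gzma (4.85), the costimulatory receptor genes Tnfrsf4 (2.41) and Tnfrsf9 (1.99), Gzmk (2.09) and Gzmb (1.93) over 1093 genes ranked. Areg, at 3.58, had 30.7% of its UMIs in 1 cell. Klrc1 went with Havcr2 (2.70), Gzma (2.62), the chemokine gene Ccl3 (2.61), Gzmb (2.39) and Ifng (2.38) over 2444 genes, below Hspb1, Ifitm1 and Pf4 (6.33, 5.79 and 4.79), which were seen in 3.88%, 7.11% and 2.16% of the Klrc1+ cells. Klrg1 and Klrc1 thus both had granzyme genes among their leading genes.

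Klrd1 went with the receptor genes Klra7 (4.35, in 8.45% of the Klrd1+ cells) and Klre1 (2.71) over 3437 genes. Next came the TCR beta segments Trbv17 (2.62), Trbv20 (2.04) and Trbv13-1 (1.82), seen in 2.68%, 5.49% and 8.87% of these cells. Nrgn (2.06), Ifitm1 (1.99), Ccl1 (1.81) and Tpgs1 (1.76) also ranked above Cd96 (1.71), an NK and T cell receptor at rank 10. Klrk1 went with Gzmc (2.36), the perforin gene Prf1 (2.20) and Klre1 (2.07) over 2138 genes. The highest Klrk1 ratio, for Ccl7 (4.49), had 86.7% of the UMIs in 1 cell. Hspb1 (3.56), Ifitm1 (3.03), Trbv20 (2.93), Spp1 (2.86) and AC163354.1 (2.48) also ranked above Gzmc. In Treg cells, Klrg1 went with the leukotriene receptor gene Ltb4r1 (2.47), the metallothionein gene Mt2 (2.20), Gzma (2.16), Tff1 (2.14) and Prf1 (2.06) over 4153 genes. Ltb4r1 was seen in 18.2% of the Klrg1+ Treg cells, but Mt2, Gzma, Tff1 and Prf1 in only 7.44%, 4.53%, 5.53% and 8.15%. For Gzma and Prf1, 21.7% and 19.8% of the UMIs in these cells lay in 1 cell. Klrc2 and Klrb1c rest on too few cells for such a ranking to be firm: in CD8 cells 328 and 142 genes could be ranked. The lists also changed with the cutoff, and at a minimum of 50 UMIs 7 of them moved and 1 did not.

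The tumor of origin could be read for few cells, since 796 kept cells had tags of B16 only and 143 of B16–IL-33 only. Any tag UMI of 1 tumor with none of the other was enough, with no minimum count. The assignment is therefore weak, and the part of stray tags in it was not tested. In Treg cells Klrg1 was at 342 CPM in B16–IL-33 (62 UMIs, 55 cells) and at 291 CPM in B16 (274 UMIs, 245 cells), a ratio of 1.18 (0.877–1.55), which includes 1. The ratio was 2.14 (1.29–3.43) from the tags numbered 1 and 0.867 (0.597–1.23) from those numbered 2, so the tags went opposite ways. In CD8 cells, 19 against 103 cells, the ratios were 1.5 (0.780–2.72) for Klrc1, 1.14 (0.738–1.70) for Klrd1 and 1.40 (0.713–2.57) for Klrk1. For these 4 gene and lineage pairs, no difference between the tumors was detectable with both tags. In Treg cells Klrk1 had 6 UMIs in B16–IL-33 and 3 in B16, a ratio of 10.4 (2.22–64.2), and Klrd1 had 5 and 4, a ratio of 6.49 (1.40–32.7), but both rest on levels near background and on under 10 UMIs. Each tumor is 1 sample.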

How the data were processed

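The authors deposited gene expression as UMI counts for each gene and barcode, not normalized, aligned to a combined human and mouse reference (mm10). The matrix header names Cell Ranger 3.1.0 and the submitters' processing notes 6.1.1. Hashtag and TCR contig data were deposited as counts of UMIs as well. Cells with 200 to 2500 mouse genes (genes in at least 4 cells) and mitochondrial UMIs under 5% were kept. UMIs were summed per lineage, divided by all mouse UMIs and given as CPM. Intervals at 95% and ratios were computed in Python 3.11.15 with SciPy 1.17.1, NumPy 2.4.6 and pandas 2.3.3, and figures drawn in matplotlib 3.10.9. No test across samples was possible for 1 pool. The background of a comparison is the share of all genes with at least 20 UMIs past 2-fold. On simulated Poisson counts for CD8 over Treg (10714 genes, 200 changed), the intervals held 96.5% of the true ratios of changed genes. These counts had the spread that the intervals assume. The simulation therefore checks the computation only and does not cover the spread between real cells. No doublet caller was run, but cells with at least 2 productive beta chains were left out as an alternative. A tumor was assigned from tags of that tumor alone, with no minimum number of tag UMIs. Klrh1, 1 listed gene, was not found under that symbol. Where a limit is given for a share or CPM of 0, it is 3 cells or 3 UMIs of the total. This limit is lower than the upper bound of the 95% interval. Cells with at least 5 UMIs of other cell types' markers and no CD3 UMI gave the rate set beside the lineages. The members are named in every comparison with the listed adaptors, ligands, Ly49, lectin-like, effector and regulator genes. Splits by 1 further gene are not reported here. The members, lists and classes were chosen with earlier results of these data known.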

Additional observations from a re-analysis of the deposited data

How the results depend on the processing

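Of 617 values recomputed under an alternative, 515 moved by less than their counting error (or, for counts of genes, stayed within the stated limit), 98 moved further and 4 turned direction. The alternatives without CD3-negative cells, without cells with 2 productive beta chains and without CD8 cells with a Cd4 or Foxp3 UMI moved none of their values. With no upper limit on detected genes, 1 gene in place of 3 was at least 2-fold lower in Il1rl1+ Treg cells. At 2 or more UMIs of the defining genes, with 11 NKT cells left, the NKT over Tconv ratios of Klrc2, Klrd1 and Klrb1c were 0, with 0 genes at least 2-fold higher and 5 lower. Thinned to 1500 UMIs, 5 genes were at least 2-fold higher in NKT cells. Of the lists of most alike genes, 7 moved and 1 did not at a minimum of 50 UMIs. With a gene required in at least 10% of the cells with the member, 4 moved and 4 did not. With Tconv cells that had an Il2ra, Ikzf2 or Ctla4 UMI left out, an alternative chosen after seeing the data, Klrg1 was at a CD8 over Tconv ratio of 2.93 and 0 genes were 2-fold lower in NKT cells; the other alternatives chosen after seeing the data were CD8 cells without a Cd4 or Foxp3 UMI and a minimum share for the most alike genes. The co-detection differences of Klrd1 with Klrc1, Klrk1 with Klrc1 and Klrk1 with Klrd1, at 11.1, 17.0 and 8.92 percentage points, were 18.5, 28.5 and 18.3 with no thinning, and 8.19, 8.10 and 5.12 when thinned to 1000 UMIs, where only Klrk1 by Klrc1 kept intervals apart. From the tags numbered 1, the B16–IL-33 over B16 ratio was 2.14 for Klrg1 in Treg cells and 0.669 for Klrk1 in CD8 cells, and from those numbered 2 it was 0.867 for Klrg1. The causes were not tested, except that stricter lineage rules and thinning leave fewer cells and UMIs. No paired analysis was possible because the results come from no test and the cells come from 1 pool. Counts of under 20 UMIs (Klrc2 and Klrb1c in Treg and NKT cells, the NKG2 genes in Il1rl1+ Treg cells) limit what could be seen, and Klrc1 and Klrc2 share part of their sequence.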

Other observations

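The 3380 kept cells that fell in none of the lineages held a part of each receptor. By the rules, this group takes cells without a defining UMI and cells whose Cd8 UMIs were not above Cd4 and Foxp3. Klrb1c had 71 of its 133 positive cells there and stood at 14.0 CPM, above the 7.32 CPM of CD8 cells. Klrd1 was at 77.6 CPM, Klrk1 at 52.4 CPM, Klrg1 at 93.1 CPM and Klrc1 at 25.5 CPM. Summed NK cell markers reached 1141 CPM in these cells and summed myeloid markers 1425 CPM, and 14.2% of them had no CD3 UMI. Ncr1, which encodes the NK receptor NKp46, was seen in 7 of the 133 Klrb1c+ cells, and 92.5% of the Klrb1c+ cells had a CD3 UMI. Of all kept cells positive for Klrg1, Klrc1, Klrc2, Klrd1 or Klrk1, 95.7% to 98.0% had a CD3 UMI.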
